A study of Mus musculus with 10 samples.

Results

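The nuclear-encoded genes of oxidative phosphorylation were followed through 10 RNA-sequencing libraries of tumour endothelial cells. Members were taken by gene symbol: the Nduf genes of respiratory complex I with a subunit letter and number, the 4 Sdh genes of complex II, the Uqcr genes of complex III, the Cox4 to Cox8 genes with an isoform letter of complex IV, and the Atp5 genes of complex V. The symbols matched 84 of the 28454 listed, of which 37 belong to complex I, 4 to complex II, 8 to complex III, 15 to complex IV and 20 to complex V. The cells were isolated magnetically as CD31+ cells, after removal of CD11b+ cells, from B16F10 melanomas, tumours of a transplantable mouse melanoma line, grown in adult mice. In 4 libraries, called wild type here as in the labels, the host strain was Cdh5-CreERt2. In the other 6 the hosts were Shbflox/flox/Cdh5-CreERt2 mice, in which the Shb gene was inactivated in endothelial cells. All hosts of both groups thus carried the Cre recombinase, which is driven by the promoter of the endothelial cadherin gene Cdh5 and needs an oestrogen-receptor ligand to act. Shb is an SH2-domain adaptor that carries signals from receptors such as the vascular endothelial growth factor receptor VEGFR-2.

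Oxidative phosphorylation takes place in the inner mitochondrial membrane. Complexes I and II pass electrons from NADH and succinate to ubiquinone, complex III passes them to cytochrome c, complex IV to oxygen, and ATP synthase, complex V, uses the resulting proton gradient to make ATP. Most subunits are encoded in the nucleus, and a small set of core subunits is encoded by mitochondrial DNA. Endothelial cells are known to obtain much of their ATP from glycolysis and to use their mitochondria also for biosynthesis and signalling. The nuclear genes are known to share binding sites in their promoters for the transcription factors NRF1, GABP (an ETS factor) and YY1.

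The targeted gene followed the labels. Shb was at 2.78 to 5.44 FPKM (fragments scaled to transcript length and to the library's mapped fragments) in the wild-type libraries and at 0.37 to 1.44 FPKM in the Shb-inactivated ones, and the groups did not overlap. All 10 endothelial markers checked were present, with summed levels between 3018 and 4982 FPKM. Other cell types were present at levels that varied between libraries. Summed macrophage markers reached 5725 FPKM in the third wild-type library and 4446 and 3774 FPKM in replicates 3 and 4 of the Shb-inactivated group, against 28.0 to 529 elsewhere. Melanoma markers summed to 1133 FPKM in wild-type replicate 1 and to 12.6 to 349 in the other libraries. In the comparison of groups described below, all 10 endothelial markers were higher after Shb inactivation, with a median log2 difference of 0.33. All tested melanoma (8), macrophage (10) and lymphocyte (7) markers were lower on that log2 scale, with medians of -1.51, -1.01 and -0.87. For macrophages the direction depended on the scale. Mean FPKM was higher after Shb inactivation for Cd68 (86.7 against 81.4), Adgre1, C1qc and Mrc1, and lower for the other macrophage markers. No marker passed the test. The part of cell composition in the members' differences was not tested. Small nucleolar RNAs were low in replicate 1 of wild type and replicates 1 and 2 of the other group, at 636 to 1851 summed FPKM against 3138 to 11473 in the other libraries. The files give no read counts, so depth is unknown.

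Stretches of 4 promoters, from complexes I, III, IV and V, were chosen because each holds a match to one of these motifs; most members hold none. They were taken from RefSeq on GRCm38.p6, are written 5′ to 3′ on the gene's strand, lie before the annotated start and overlap no annotated exon. Ndufs5 is shown for complex I (chr4:123718203-123718322, minus strand), Uqcr11 for complex III (chr10:80406831-80406950, minus strand), Cox6a1 for complex IV (chr5:115348982-115349101, minus strand) and Atp5h for complex V (chr11:115419963-115420082, minus strand). Capitals mark a match to the NRF1 core CGCANGCG in Ndufs5, Cox6a1 and Atp5h, and to the ETS motif CCGGAAGT in Uqcr11, the member with the smallest p-value in the comparison of genotypes.
Ndufs5: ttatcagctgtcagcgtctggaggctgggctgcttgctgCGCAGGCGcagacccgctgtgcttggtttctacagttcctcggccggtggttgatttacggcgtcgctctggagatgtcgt
Uqcr11: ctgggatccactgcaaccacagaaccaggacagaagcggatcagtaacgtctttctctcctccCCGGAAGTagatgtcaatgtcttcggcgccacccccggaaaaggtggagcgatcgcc
Cox6a1: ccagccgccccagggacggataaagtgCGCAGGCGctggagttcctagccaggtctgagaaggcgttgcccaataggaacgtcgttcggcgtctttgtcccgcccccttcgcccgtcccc
Atp5h: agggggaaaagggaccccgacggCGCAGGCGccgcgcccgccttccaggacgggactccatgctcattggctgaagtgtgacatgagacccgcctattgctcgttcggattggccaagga
The matches begin 97 bases before the start in Ndufs5, 66 in Uqcr11, 116 in Cox6a1 and 140 in Atp5h. A RefSeq promoter window was found for 66 of the 78 members that passed the filter on low values described below. On either strand of the 250 bases before the start, 19 of the 66 (28.8%) held the NRF1 core, against 7.65% of all 27025 genes with a window and 16.5% of the 9038 tested genes with one. The ETS motif was in 3 members (4.55%, against 3.23% of all genes and 6.85% of tested genes). The YY1 core AAGATGGC was in 2 members (3.03%, against 1.83% and 2.49%), and the TATA box TATAAA in 5 (7.58%, against 14.3% and 7.71%). Each motif was counted on its own, whether or not its matches overlapped those of another. A match describes these letters only and does not show that a factor was bound.

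These genes were abundant in the sorted cells. Of the 84 members, 78 reached 1 FPKM in at least 4 of the 10 libraries and were tested: 37 of complex I, 4 of complex II, 8 of complex III, 12 of complex IV and 17 of complex V. The median of their mean levels was 84.0 FPKM, against 11.0 FPKM for all 12805 tested genes, and 33 had a mean of at least 100 FPKM. By complex, the median mean level was 65.6 FPKM for complex I, 55.2 for complex II, 114 for complex III, 183 for complex IV and 157 for complex V. The ATP synthase beta subunit gene Atp5b was highest of all, at 565 FPKM. The 6 members that were not tested were the muscle-type Cox8b, the testis-type Cox6b2, Cox7b2, and the pseudogenes Atp5l-ps1, Atp5l-ps2 and Atp5l2-ps. None of these had a mean of 1 FPKM.

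Inactivation of Shb moved no member past the test. In limma's fit over all tested genes, none of the 78 had a Benjamini-Hochberg adjusted p under 0.05, and the smallest was 0.989. The same was true of all 12805 genes (0%), so that even Shb itself, at an unadjusted limma p of 9.74e-05, had an adjusted p of 0.989. At an unadjusted limma p under 0.05 there was 1 member, Uqcr11, beside 442 of all tested genes (3.45%). Uqcr11 was also the only member with an exact permutation p under 0.05, a level that 3.87% of tested genes passed. In no member did all Shb-inactivated libraries lie on one side of all wild-type libraries, which occurred for 0.718% of tested genes. These shares for the members were at or below those of all genes.

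The differences were small in size and went both ways. Differences are given as Shb-inactivated minus wild type in log2(FPKM + 1), a scale that compresses changes of low genes. The members' median difference was 0.027, with 45 above 0 and 33 below, in a range of -0.38 to 0.30. Most members moved together across the 10 libraries. The correlation of a member with the median of the others was 0.76 in the median, and above 0.5 for 58 of 78. Counts of members above and below 0, here and below, are therefore not counts of separate observations. The median of all tested genes was 0.0055. By complex, the median was -0.0089 for complex I (18 above 0, 19 below), 0.011 for complex II (2 and 2), 0.079 for complex III (5 and 3), 0.075 for complex IV (10 and 2) and 0.020 for complex V (10 and 7). The 95% confidence interval of a member's difference reached 0.35 to either side in the median member. Among the 72 members with a mean over 10 FPKM, all interval bounds lay between -0.83, for Atp5k, and 0.88, for Uqcrb. The widest of these intervals was that of Uqcrb, which ran from -0.63 to 0.88.

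**Figure D1:**
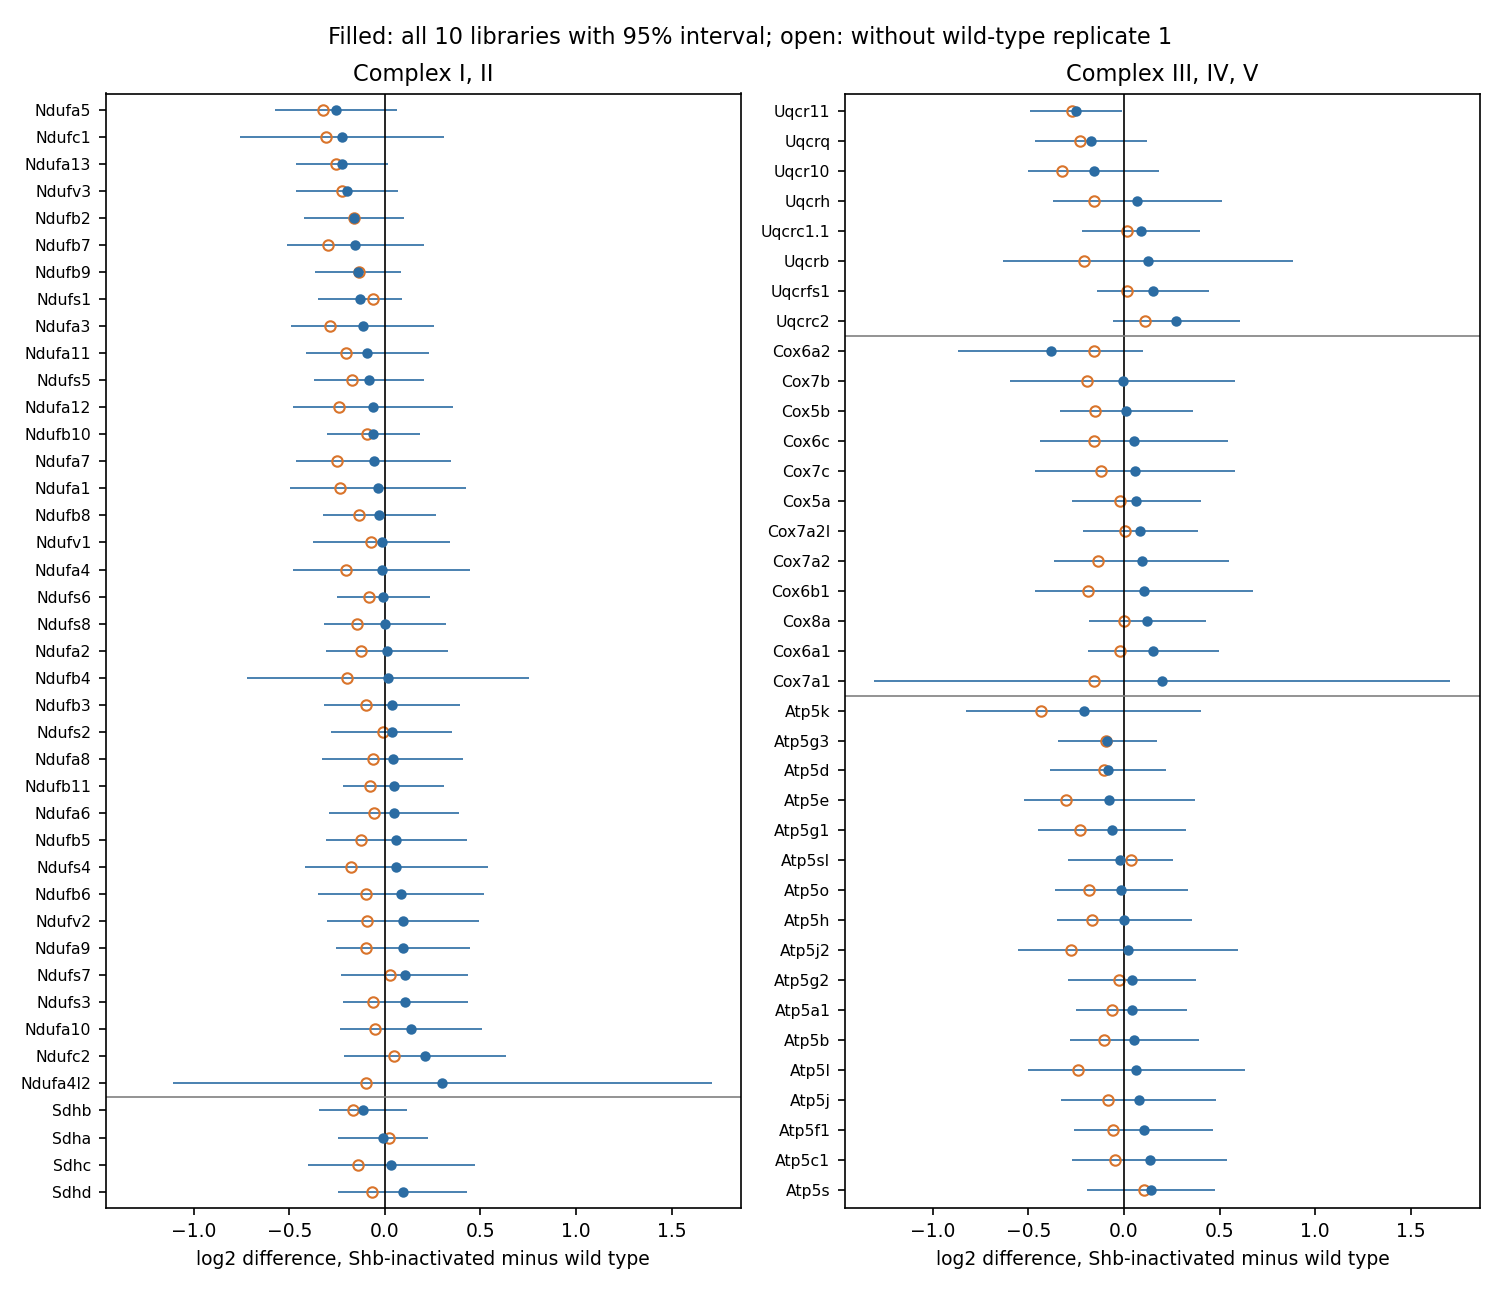
Log2 difference in level (mean log2(FPKM + 1) of the Shb-inactivated group minus that of wild type) of each of the 78 tested members, by complex. Filled points are fitted on all 10 libraries with 95% confidence intervals and open points leave out wild-type replicate 1; only the interval of Uqcr11 lies off 0, and most open points lie to the left of the filled ones.

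The summed level of the members was close in the group means, at 9205 ± 1803 FPKM (SD, n = 4) in wild type and 9189 ± 981 (SD, n = 6) after Shb inactivation. The wild-type sum was 6532 FPKM in replicate 1, 9784 in replicate 2, 10050 in replicate 3 and 10454 in replicate 4. The Shb-inactivated libraries ran from 8063 to 10433 FPKM, with a median of 9082. Wild-type replicate 1 was thus below all the other libraries, and the remaining 9 overlapped between the groups.

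**Figure D2:**
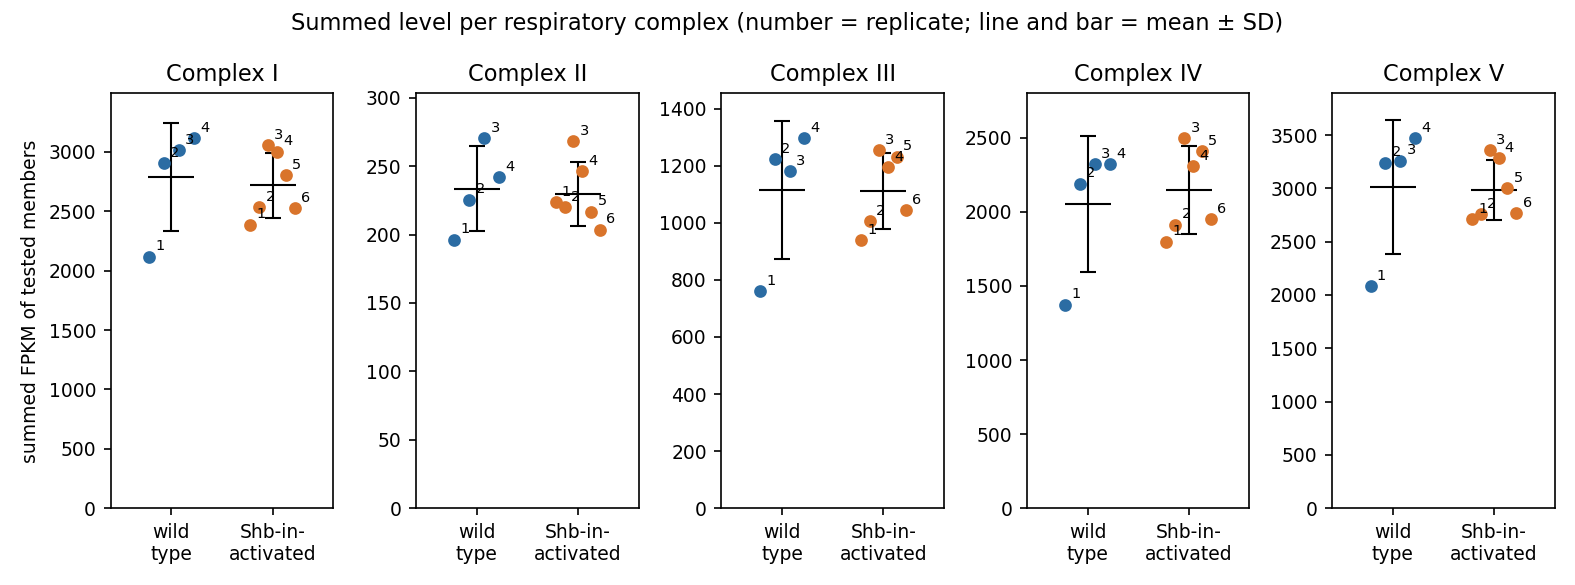
Summed FPKM of the tested members of each complex in the 4 wild-type (blue) and 6 Shb-inactivated (orange) libraries, numbered by replicate, with the mean and SD of each group. Wild-type replicate 1 is the lowest library in every complex, from 196 FPKM in complex II to 2118 FPKM in complex I.

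The sign of the members' median depended on single libraries, and most of all on wild-type replicate 1. Leaving out Shb-inactivated replicate 3 or 4 also brought the median just below 0, to -0.0098 (37 above 0, 41 below) and -0.0079 (38 above, 40 below). Of the 78 tested members, 49 were lowest in wild-type replicate 1. A member's level there was, in the median, 0.46 below its mean over the 10 libraries on the log2 scale, and the medians of the 5 complexes were 0.31 to 0.57 below. Ndufs1, which encodes the large iron-sulfur subunit of complex I, and the muscle-type Cox6a2 were instead highest there. The low level was shared with other abundant genes: the 1468 other genes with a mean of at least 55.1 FPKM were 0.40 below their means in that library, while the median over all tested genes was 0.054 below. Wild-type replicate 1 also had the highest melanoma marker sum, the lowest endothelial marker sum (3018 FPKM) and one of the low small nucleolar RNA sums, and their part in its low level was not tested. In these bulk samples, fewer cells of a type and less RNA per cell cannot be told apart.

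Without wild-type replicate 1, the members' median difference was -0.13, with 10 above 0 and 68 below, while the median of all tested genes was -0.0059. The medians of complexes I to V were then -0.13, -0.10, -0.18, -0.14 and -0.11. There was still no gene past the threshold. Unadjusted limma p-values under 0.05 were then given by 3 of the 78 members, beside 2.49% of all tested genes. These were Ndufa3, Uqcr10 and Uqcr11, all lower after Shb inactivation. In Ndufa3 all 6 Shb-inactivated libraries were then below the 3 remaining wild-type libraries, as in 0.562% of tested genes. Other choices of libraries named partly other genes. When the 3 libraries low in small nucleolar RNAs were left out, the median was -0.085, and Atp5d, Atp5g1, Atp5g3 and Ndufa3 were lower without overlap, beside 3.46% of tested genes. When the 3 libraries rich in macrophage markers were left out, the median was 0.0015, and Ndufa13, Ndufb2, Ndufs1 and Uqcr11 were lower without overlap, beside 2.35% of tested genes.

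**Figure D3:**
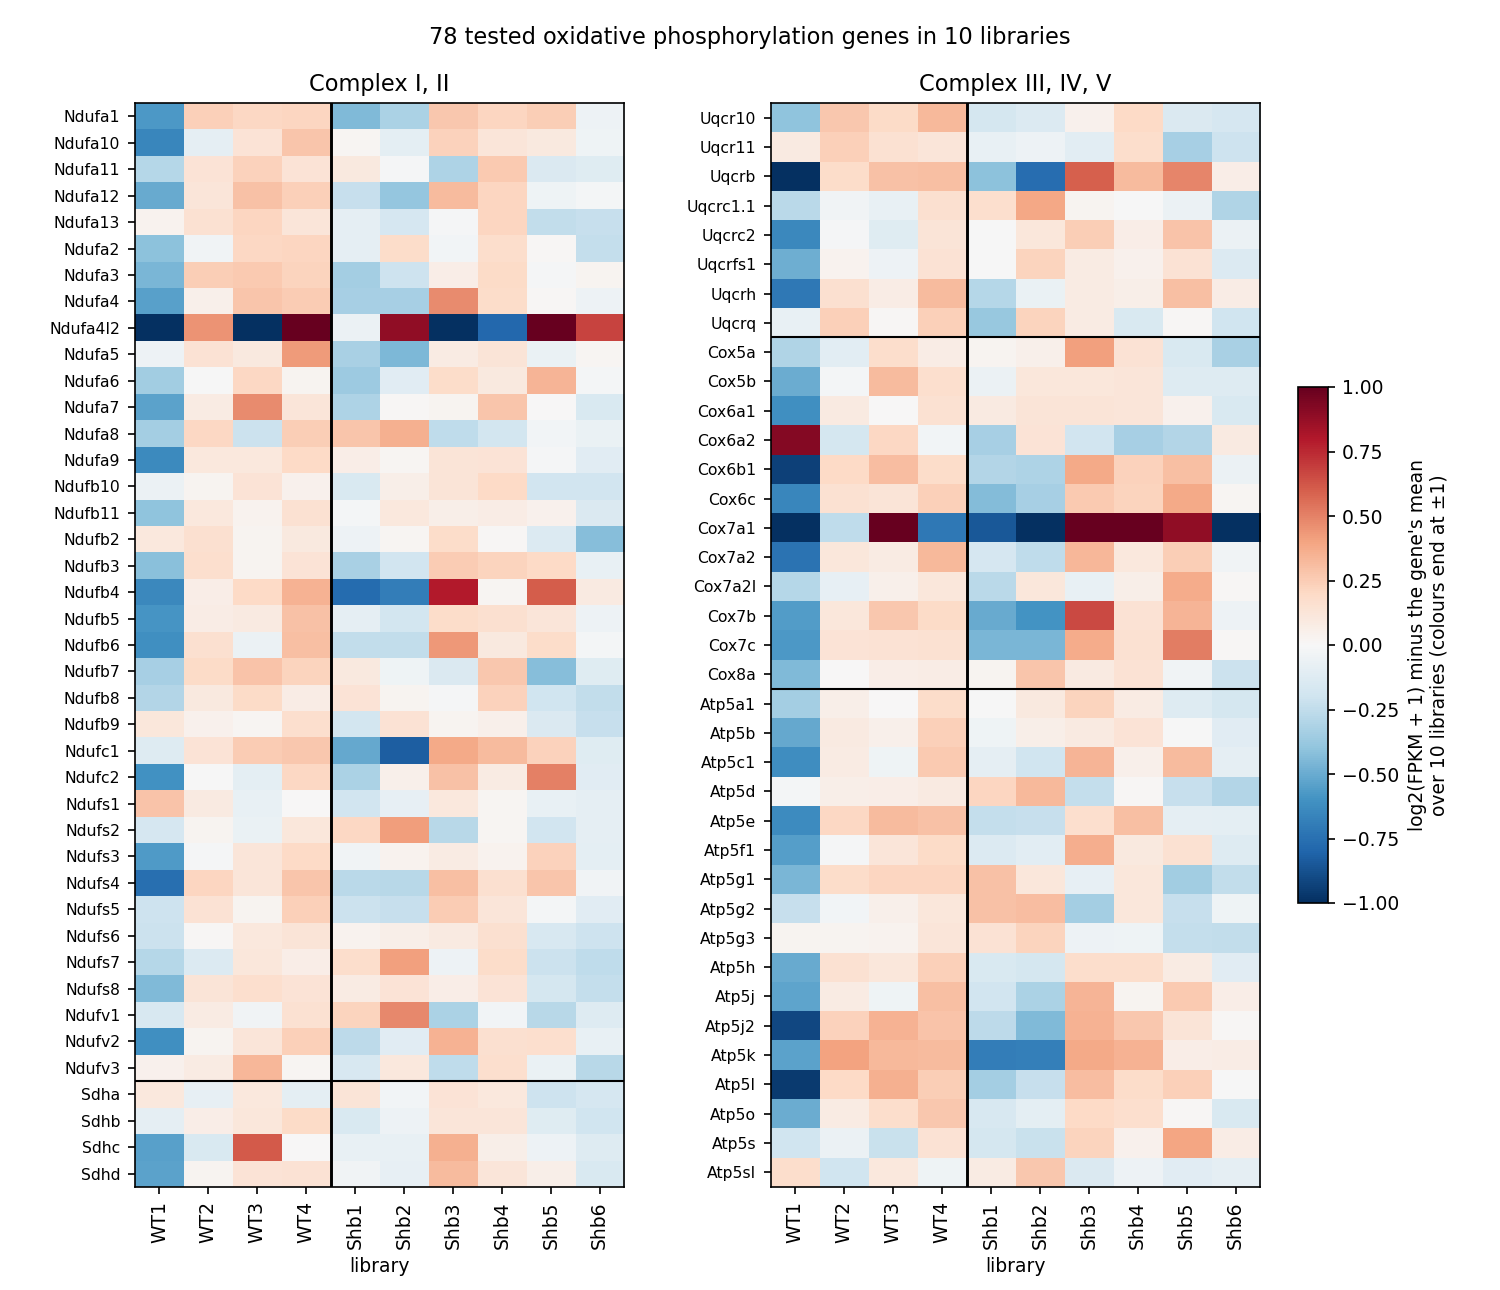
Level of each of the 78 tested members in each library, as log2(FPKM + 1) minus that gene's mean over the 10 libraries, by complex (WT, wild type; Shb, Shb-inactivated; number, replicate). The column of wild-type replicate 1 is mostly below the mean, and the rows of Ndufa4l2 and Cox7a1 vary far more between libraries than the others.

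In complex I, NADH dehydrogenase, none of the 37 genes placed there by symbol passed the test. Its 7 tested core subunits of the hydrophilic arm had a median difference of 0.037 (5 above 0, 2 below) and the 30 supernumerary subunits one of -0.023 (13 above, 17 below). Ndufa4, now known as a subunit of complex IV, and the related Ndufa4l2 are counted among the 30 and in the complex I values by symbol. The highest were Ndufa4 and Ndufa3. Ndufa3, a small membrane-arm subunit, was at 156, 255, 257 and 251 FPKM in wild type and at 169 to 245 FPKM after Shb inactivation, with a median of 216. Its low wild-type library was below all the others, and the difference was -0.11 ± 0.17 (SE; exact permutation p = 0.514).

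The smallest p-values of complex I belonged to Ndufa13 and Ndufa5. Ndufa13, also known as GRIM-19, was at 33.3, 36.2, 37.8 and 35.4 FPKM in wild type. After Shb inactivation it lay between 27.2 and 37.9 FPKM, with a median of 29.5. Replicate 4 of that group was as high as the highest wild-type library, and the other 5 were below all wild-type libraries. The log2 difference was -0.22 (95% interval -0.46 to 0.02; exact permutation p = 0.0524), and it did not pass the test. Ndufa5, a subunit of the arm that reaches into the matrix, was at 69.9, 80.5, 77.9 and 97.7 FPKM in wild type and at 52.8 to 79.4 FPKM after inactivation, with a median of 71.4. The groups overlapped, and the log2 difference was -0.26 (95% interval -0.58 to 0.06; exact permutation p = 0.129).

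Ndufa4 was first described as a complex I subunit and is now known as a subunit of complex IV. It was at 186, 282, 330 and 324 FPKM in wild type and at 216 to 379 FPKM after Shb inactivation, with a median of 268. Its group means, 281 ± 66.3 (SD, n = 4) and 276 ± 61.6 FPKM (SD, n = 6), differed by far less than the spread.

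The related gene Ndufa4l2, known as a target of hypoxia-inducible factor and as a gene of pericytes, varied 11.1-fold between libraries. It was at 1.19, 6.80, 1.75 and 12.8 FPKM in wild-type replicates 1 to 4. In Shb-inactivated replicates 1 to 6 it was at 4.49, 9.60, 1.31, 2.31, 13.2 and 8.15 FPKM. High and low libraries occurred in both groups, and the log2 difference of 0.30 had a 95% interval of -1.11 to 1.71 (exact permutation p = 0.671). Ndufa4l2 made up 0.345% to 4.59% of the summed FPKM of this gene pair.

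The complex IV isoform gene Cox4i2, also known from pericytes and from hypoxia, followed a similar order. Its levels were 1.55, 5.19, 1.48 and 8.08 FPKM in wild type and 2.54, 5.68, 0.80, 1.45, 7.66 and 4.80 FPKM in Shb-inactivated replicates 1 to 6. Markers of pericytes and fibroblasts, which are other cells of the vessel wall and stroma, summed to 218, 175, 72.1 and 283 FPKM in wild type. In Shb-inactivated replicates 1 to 6 they summed to 120, 209, 35.2, 56.9, 352 and 376 FPKM. The libraries with the lowest marker sums, Shb-inactivated replicates 3 and 4 and wild-type replicate 3, were among the 4 lowest for Ndufa4l2. Wild-type replicate 1 was lowest in Ndufa4l2 with a marker sum of 218 FPKM. Most of that sum came from the collagen genes Col1a1, at 123 FPKM, and Col1a2, at 72.5 FPKM. The pericyte marker Rgs5 was at 14.6 FPKM there, its lowest level in the 10 libraries. Other pericyte markers were not lowest there. Pdgfrb was at 3.03 FPKM and Cspg4 at 1.34 FPKM, against 1.70 and 0.35 FPKM in Shb-inactivated replicate 3. The part of these cells in the level of either gene was not tested.

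Complex II, succinate dehydrogenase, has no subunit encoded by mitochondrial DNA and also serves in the citric acid cycle. Its 4 genes were at similar levels in both groups. Sdha, the flavoprotein that oxidises succinate, was the steadiest of them: it was at 58.8, 51.7, 58.9 and 50.9 FPKM in wild type and at 47.1 to 60.3 FPKM after Shb inactivation, with a median of 56.3. Its group means were 55.1 ± 4.36 (SD, n = 4) and 54.8 ± 5.90 FPKM (SD, n = 6), and it was not low in wild-type replicate 1. Sdhb, the iron-sulfur subunit, was at 67.6, 75.3, 78.1 and 82.3 FPKM in wild type and at 62.7 to 78.6 FPKM after inactivation, with a median of 68.0. The groups overlapped, and the log2 difference was -0.11 (95% interval -0.34 to 0.11).

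The membrane anchors of complex II varied more. Sdhc was at 32.3, 42.6, 73.0 and 47.6 FPKM in wild type. In the Shb-inactivated libraries it was at 43.2 to 61.0 FPKM, with a median of 45.4. The highest library of each group was its replicate 3, and both of these were rich in macrophage markers; the part of those cells was not tested. Sdhd was at 37.7, 55.9, 60.6 and 60.8 FPKM in wild type and at 49.2 to 68.6 FPKM after inactivation, with a median of 55.4. The log2 differences were 0.034 for Sdhc and 0.092 for Sdhd, both smaller than their standard errors of 0.20 and 0.15.

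Complex III, the cytochrome bc1 complex, held the member with the smallest p-value. Uqcr11 encodes one of its small subunits. It was at 137, 152, 143 and 140 FPKM in wild-type replicates 1 to 4. In Shb-inactivated replicates 1 to 6 it was at 121, 124, 119, 145, 102 and 111 FPKM. The fourth of these lay among the wild-type libraries, and the other 5 lay below all of them. The means were 143 ± 6.54 (SD, n = 4) and 120 ± 14.7 FPKM (SD, n = 6). The log2 difference was -0.25 ± 0.11 (SE; 95% interval -0.49 to -0.01; unadjusted limma p = 0.0428, adjusted p = 0.989; exact permutation p = 0.0333). In wild-type replicate 1 Uqcr11 was close to its level in the other wild-type libraries, and without that library its difference was -0.27. Under the 22 other settings of the analysis that kept limma the difference ran from -0.32 to -0.17. In some of them, among these the melanoma and macrophage covariates, its unadjusted limma p was not under 0.05.

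Of the other 7 complex III genes, Uqcr10 and Uqcrq were also below 0, at -0.16 and -0.17, and 5 were above 0. Without wild-type replicate 1, Uqcr10 was at -0.33, Uqcrq at -0.23, Uqcrb at -0.21 and Uqcrh at -0.16. Uqcrc2, a core protein that faces the matrix, was at 46.2, 72.1, 66.7 and 79.8 FPKM in wild type and at 70.1 to 89.0 FPKM after Shb inactivation, with a median of 77.5. Its log2 difference of 0.27 (95% interval -0.06 to 0.60; exact permutation p = 0.0762) was 0.11 without wild-type replicate 1. The most abundant genes of the complex were Uqcrb and Uqcrh. Uqcrb, a subunit near the ubiquinone site, was at 123, 294, 318 and 320 FPKM in wild type and at 153 to 393 FPKM after inactivation, with a median of 297. Uqcrh, the hinge protein that helps to hold cytochrome c1, was at 158, 291, 274 and 324 FPKM in wild type and at 214 to 321 FPKM after inactivation, with a median of 273. Both were lowest in wild-type replicate 1, and their log2 differences were 0.12 ± 0.34 and 0.070 ± 0.20 (SE).

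Complex IV, cytochrome c oxidase, had 10 members above 0 and 2 below, and none that passed the test. Cox6b1 and Cox6c were its most abundant genes among the members. Cox6b1, which links the monomers of the complex on the side of the intermembrane space, was at 161, 354, 381 and 349 FPKM in wild type and at 249 to 400 FPKM after Shb inactivation, with a median of 329. Cox6c was at 185, 323, 318 and 343 FPKM in wild type and at 215 to 378 FPKM after inactivation, with a median of 316. In both genes wild-type replicate 1 was lowest, followed by Shb-inactivated replicates 1 and 2, and the other 7 libraries overlapped. The group means of Cox6b1 were 311 ± 101 (SD, n = 4) and 323 ± 66.3 FPKM (SD, n = 6).

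Several complex IV subunits are made from alternative genes, one of which is known from heart and skeletal muscle. The ubiquitous form dominated in every library. Cox6a1 was at 158, 259, 244 and 270 FPKM in wild type and at 219 to 266 FPKM after Shb inactivation, with a median of 262, and made up 98.3% to 99.8% of the summed FPKM of the Cox6a pair. Cox6a2, its muscle-type partner, was at 2.74, 0.75, 1.29 and 0.94 FPKM in wild type and at 0.57 to 1.18 FPKM after inactivation, with a median of 0.675. Its highest value was in wild-type replicate 1, the groups overlapped, and the log2 difference was -0.38 (95% interval -0.87 to 0.10; exact permutation p = 0.1) and -0.15 without that library. Cox8a made up at least 99.98% of the Cox8 pair, and Cox8b was listed at 0 in 9 of 10 libraries. Cox6b1 made up at least 99.8% of the Cox6b pair. Striated muscle markers summed to 1.50 to 4.57 FPKM in any library.

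Cox7a1, the muscle-type partner of Cox7a2, was the exception in its variation. It was at 0.42, 1.73, 9.50 and 0.98 FPKM in wild type. In Shb-inactivated replicates 1 to 6 it was at 0.81, 0.62, 5.77, 7.57, 5.02 and 0.62 FPKM. The high libraries occurred in both groups, and the log2 difference was 0.20 (95% interval -1.31 to 1.71). Of the 4 highest libraries, 3 were those rich in macrophage markers, and the other, Shb-inactivated replicate 5, had the lowest macrophage marker sum of all, at 28.0 FPKM. The part of macrophages in the level of Cox7a1 was not tested. Cox7a2 was at 80.7, 146, 143 and 169 FPKM in wild type and at 113 to 170 FPKM after inactivation, with a median of 138, so that Cox7a1 was 0.468% to 6.24% of the pair. Cox7a2l, which encodes a factor that joins complexes III and IV into supercomplexes, was at 104, 121, 132 and 138 FPKM in wild type and at 106 to 165 FPKM after inactivation, with a median of 131, and its log2 difference was 0.085 ± 0.13 (SE).

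**Figure D4:**
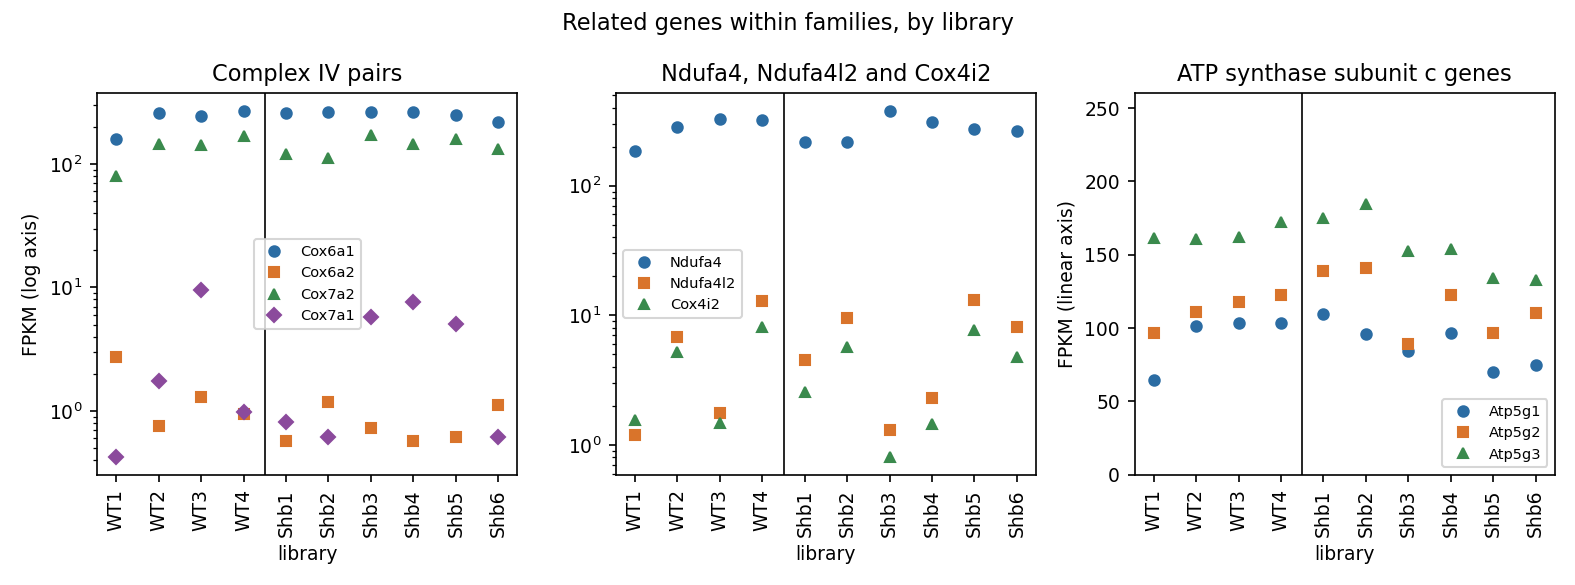
FPKM of related genes in each library: the Cox6a and Cox7a pairs (left, log axis), Ndufa4 with Ndufa4l2 and the complex IV isoform Cox4i2 (middle, log axis), and the ATP synthase subunit c genes (right, linear axis). The minor forms reach at most 13.2 FPKM, and Ndufa4l2 and Cox4i2 are high and low in the same libraries in both groups.

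In complex V, ATP synthase, 10 members were above 0 and 7 below, and none passed the test. The 5 genes of the F1 head, where ATP is made, had a median difference of 0.041. Atp5b, the catalytic beta subunit, was at 392, 596, 581 and 662 FPKM in wild type and at 518 to 616 FPKM after Shb inactivation, with a median of 570. Its means were 558 ± 116 (SD, n = 4) and 569 ± 36.3 FPKM (SD, n = 6), and 3 of the 4 wild-type libraries lay within or above the range of the other group. Atp5k, the e subunit that helps ATP synthase to form dimers, had the second highest mean of the complex. It was at 181, 348, 329 and 328 FPKM in wild type. In Shb-inactivated replicates 1 to 6 it was at 163, 163, 343, 335, 276 and 277 FPKM. Low and high libraries occurred in both groups, and the log2 difference was -0.21 ± 0.28 (SE; exact permutation p = 0.49). Without wild-type replicate 1 it was -0.43.

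Subunit c, which forms the rotating ring of ATP synthase, is encoded by Atp5g1, Atp5g2 and Atp5g3. These genes are known to yield the same mature protein. Atp5g3 gave 41.2% to 50.1% of their summed FPKM, Atp5g2 27.4% to 34.6% and Atp5g1 20.0% to 27.1%. Atp5g1 was at 64.5, 101, 104 and 104 FPKM in wild type and at 70.0 to 110 FPKM after Shb inactivation, with a median of 90.2. Atp5g2 was at 96.3, 111, 118 and 123 FPKM in wild type and at 89.3 to 141 FPKM after inactivation, with a median of 116. Atp5g3 was at 161, 161, 162 and 172 FPKM in wild type and at 133 to 185 FPKM after inactivation, with a median of 153. All 3 genes were highest in Shb-inactivated replicate 1 or 2, the groups overlapped in each, and the log2 differences were -0.064, 0.041 and -0.087.

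The symbol pattern also took in Atp5s and Atp5sl, which are known today as Dmac2l and Dmac2 and are not structural subunits of ATP synthase. They were the lowest tested members of this group. Atp5s was at 2.43, 2.77, 2.37 and 3.36 FPKM in wild type and at 2.37 to 4.17 FPKM after Shb inactivation, with a median of 3.10. The log2 difference of 0.14 (95% interval -0.19 to 0.47; exact permutation p = 0.338) was within the spread. The pseudogenes of Atp5l were near 0, and how the reads of Atp5l and other genes with near-identical copies were assigned is not given in the sources used here, so their levels are uncertain to that extent.

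Annotated transcript length went with the level of the members in some libraries. Length here is the median over a gene's annotated protein-coding transcripts, which need not be the length of the transcript expressed. By this measure Uqcrc1 was at 533 bases, Ndufs1 at 651 and Atp5g1 at 2675.5, so the classes are only a rough guide to length. The 26 members shortest by this measure, of at most 572 bases in GENCODE vM21, were 0.27 below their means in Shb-inactivated replicate 1. In Shb-inactivated replicate 2 they were 0.17 below. The 26 members longest by this measure, of at least 873 bases, were 0.029 below and 0.045 above their means in those libraries. Atp5k, at 321.5 bases the shortest, was lowest in these 2 libraries. The 353 other tested genes in the length range of the short members were 0.016 below and 0.018 above their means there. Both libraries were among the 3 low in small nucleolar RNAs, and whether these patterns share a source was not tested. In wild-type replicate 1 the short members were 0.53 below their means and the long members 0.47 below.

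No gene of the other mitochondrial lists passed the test. Of the OXPHOS subunits outside the symbol pattern, 0 of 7 tested passed the test in either direction, with 3 above 0 and 4 below. They include Cox4i1, the main subunit IV gene, at 277 ± 46.6 and 276 ± 25.6 FPKM (SD, n = 4 and 6), and Usmg5, a small ATP synthase subunit, at 230 ± 50.7 and 231 ± 47.8 FPKM. Of 44 assembly factors none passed, with 22 on each side of 0. Uqcc2, an assembly factor of complex III, was at 75.8, 90.3, 80.9 and 93.8 FPKM in wild type and at 60.6 to 77.5 FPKM after Shb inactivation, overlapping in replicate 1 of wild type (log2 difference -0.30; limma adjusted p over all genes 0.989; exact permutation p = 0.0238). Cox17, a copper chaperone for complex IV, was at 82.8 ± 11.2 and 76.3 ± 15.6 FPKM (SD, n = 4 and 6).

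Of the 17 genes of the citric acid cycle and pyruvate dehydrogenase, none passed the test, and 14 lay above 0 and 3 below, with a median of 0.036. Malate dehydrogenase Mdh2 was at 67.9 ± 5.56 and 64.7 ± 9.70 FPKM, and citrate synthase Cs at 63.3 ± 4.58 and 66.4 ± 9.01 FPKM (SD, n = 4 and 6). Of 9 mitochondrial carriers and channels none passed, with 8 above 0 and 1 below. The ADP/ATP carrier Slc25a5 was at 335 ± 80.0 and 345 ± 33.6 FPKM, and the phosphate carrier Slc25a3 at 211 ± 9.27 and 214 ± 15.3 FPKM. Of 77 mitochondrial ribosomal protein genes none passed, with 36 above 0 and 41 below. Mrpl33 was at 151 ± 47.7 and 151 ± 33.8 FPKM, and Mrpl52 at 129 ± 27.6 and 124 ± 8.61 FPKM. Mrps26 and Mrps9 are named because their groups did not overlap, which occurred in either direction for 0.718% of tested genes. They were picked for this after the values were seen, so their permutation p-values add no separate support. Mrps26 was at 17.4, 13.9, 12.9 and 15.5 FPKM in wild type and at no more than 12.7 FPKM after Shb inactivation (log2 difference -0.34; exact permutation p = 0.00476, the smallest possible; limma adjusted p 0.989). Mrps9 was at 16.6 FPKM or more in wild type and at 13.8 to 16.2 FPKM after inactivation (log2 difference -0.17; exact permutation p = 0.00952; limma adjusted p 0.989).

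Among 11 regulators of mitochondrial biogenesis none passed, with 4 above 0 and 7 below. Yy1 was at 34.0 ± 1.42 and 36.6 ± 3.30 FPKM, and Gabpa, the DNA-binding part of GABP, at 25.4 ± 3.74 and 28.2 ± 4.44 FPKM (SD, n = 4 and 6). Ppargc1a, the coactivator PGC-1 alpha, is named because of its values. It was at 26.4, 5.21, 6.29 and 2.50 FPKM in wild type and at 0.59 to 6.41 FPKM after Shb inactivation, and its highest level was in wild-type replicate 1, the library with the most melanoma marker RNA. Its log2 difference was -1.49, with an exact permutation p of 0.0571, and the part of melanoma cells was not tested.

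Most subunits encoded by mitochondrial DNA went opposite to the nuclear ones in wild-type replicate 1. The 13 genes were 1.81 above their means there on the log2 scale, in the median, and between 0.36 below and 0.051 above in the other libraries. mt-Nd1, a membrane subunit of complex I, was at 3516 FPKM in that library and at 1194 to 1435 FPKM in the other 9. mt-Nd3 was instead low there, at 13.2 FPKM, and only Shb-inactivated replicate 2 was lower, at 5.12 FPKM. mt-Co3 was at 8.05 FPKM there and highest in wild-type replicate 4, at 29.3 FPKM. None of the 13 passed the test, and 12 lay below 0 and 1, mt-Co1, above, with a median of -0.41. mt-Co1 was listed at 0 in 6 of the 10 libraries, which included libraries of both groups, so its level is not interpreted. The mean levels of mt-Nd4l, mt-Co2, mt-Co3 and mt-Atp6 were only 4.80, 4.43, 7.71 and 7.55 FPKM, against 7170 FPKM for mt-Atp8. The levels of these genes are therefore uncertain too.

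**Figure D5:**
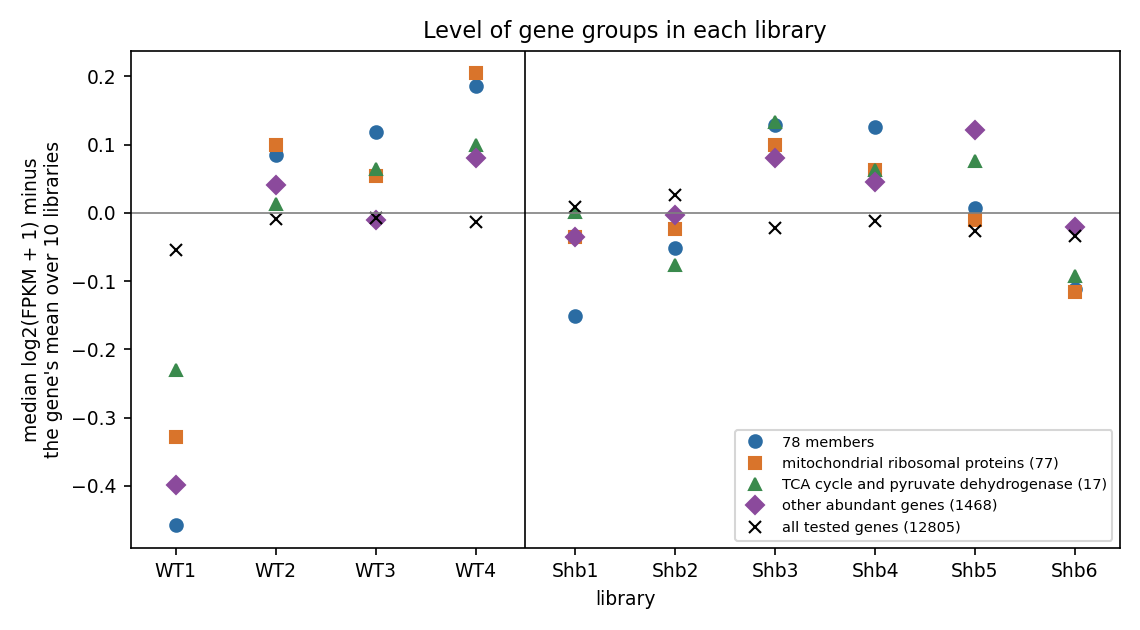
Median level of gene groups in each library, as log2(FPKM + 1) minus each gene's mean over the 10 libraries, with the number of genes in parentheses. In wild-type replicate 1 the members are at -0.46, the mitochondrial ribosomal proteins at -0.33, the citric acid cycle genes at -0.23 and the 1468 other abundant genes at -0.40, while all tested genes are at -0.054.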

How the data were processed

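Per the submitters' processing notes, TopHat2 2.1.1, Cufflinks 2.2.1 and GRCm38 were used; neither annotation nor strand setting is given in the sources used here. Libraries came from total RNA with a stranded kit and ribosomal RNA removal, per the labels' protocols. The authors deposited FPKM values, 1 file per library, with no counts. They were used as deposited (other than reading the decimal comma). Tested genes reached 1 FPKM in 4 or more of the 10 libraries; they were fitted with limma 3.58.1 (R 4.3.3, mean-variance trend) on log2(FPKM + 1), which understates changes of low genes. P-values are two-sided, adjusted by Benjamini-Hochberg over 12805 genes, with a threshold of 0.05. Single genes were also tested by exact permutation over all 210 splits of 4 and 6 libraries (smallest possible p 0.00476).

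The members and lists were chosen with earlier results of these data known. Members given in full are, in complexes I, III, IV and V, the 2 highest by mean and the 2 with the smallest p, all Sdh genes, and families with related forms; from the other lists, the 2 highest. Others were named after their values were seen. Nothing says that libraries came from separate mice, so p-values measure the spread between libraries, which may be technical. Replicate numbers were not treated as pairs in the main fit. Alternatives changed the pseudocount, filter, scaling, weights, covariates and libraries.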

Additional observations from a re-analysis of the deposited data

Results flagged for a closer look

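In 66 sets of 4 or 6 libraries of one group (the named members and the summed FPKM), 14 had a highest or lowest library that stood apart from the others by Dixon's criterion, which chance gives in about 1 of 20 sets. Of these, 10 were wild-type replicate 1 as the lowest library: Atp5g1 at 64.5 FPKM, Atp5k at 181, Cox6b1 at 161, Cox6c at 185, Cox8a at 190, Ndufa3 at 156, Uqcrb at 123, and the summed FPKM of all members at 6532, of complex IV at 1374 and of complex V at 2082. Because these share 1 library, they are not separate observations. Atp5g3 stood apart in wild-type replicate 4, where it was highest at 172 FPKM, although the wild-type libraries spanned only 161 to 172. Cox7a1 was highest in wild-type replicate 3 at 9.50 FPKM. In the Shb-inactivated group, Cox6a1 was lowest in replicate 6 at 219 FPKM and Sdhc was highest in replicate 3 at 61.0 FPKM.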

How the results depend on the processing

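Over 22 alternatives and the fit given, limma called no member and no gene. The members' median changed sign with the libraries used: it was -0.13 without wild-type replicate 1, -0.11 with library quality weights (8 members above 0, 70 below; weight 0.29 for that library), -0.11 with a melanoma score as a covariate (16 and 62), -0.085 without the 3 libraries low in small nucleolar RNAs (17 and 61) and -0.020 after quantile normalization (31 and 47), but 0.077 after scaling to TPM (54 and 24). Leaving out 1 library gave -0.13 to 0.081 for all members and -0.18 to 0.17 for complex III, whose median was -0.16 with the melanoma covariate. The cause was not tested. In 72 fits a named member changed sign; none was called. With quality weights, Atp5b was at -0.11, Atp5g2 -0.027, Cox6a1 -0.040, Cox6b1 -0.089, Cox6c -0.10, Cox7a2 -0.12, Cox8a -0.013, Ndufa4l2 -0.45, Sdha 0.037, Sdhd -0.050, Uqcrb -0.083 and Uqcrh -0.13. With the melanoma covariate, Atp5b was at -0.065, Cox6b1 -0.14, Cox6c -0.14, Cox7a2 -0.16, Ndufa4l2 -0.47, Sdha 0.061, Sdhc -0.067, Sdhd -0.046, Uqcrb -0.22 and Uqcrh -0.15. With the macrophage covariate, Ndufa4 was at 0.041 and Sdha at 0.017, and with TPM scaling at 0.033 and 0.038. Quantile normalization gave Atp5g2 -0.012, Cox6c -0.0080 and Sdhc -0.0084. Without the libraries low in small nucleolar RNAs, Atp5b was at -0.10, Atp5g2 -0.17, Cox6a1 -0.046, Cox6b1 -0.016, Cox7a2 -0.010, Cox8a -0.051, Ndufa4l2 -0.25, Sdhc -0.097, Sdhd -0.018 and Uqcrh -0.053; without those rich in macrophage markers, Cox6c was at -0.0048. Leaving out 1 library gave Atp5b -0.11 to 0.14, Atp5g2 -0.029 to 0.11, Cox6a1 -0.021 to 0.23, Cox6b1 -0.19 to 0.23, Cox6c -0.15 to 0.14, Cox7a1 -0.16 to 0.80, Cox7a2 -0.14 to 0.22, Ndufa4 -0.20 to 0.072, Ndufa4l2 -0.10 to 0.78, Sdha -0.047 to 0.030, Sdhc -0.14 to 0.24, Sdhd -0.066 to 0.16, Uqcrb -0.21 to 0.29 and Uqcrh -0.16 to 0.19. Uqcr11 was lower after Shb inactivation under all 22 limma alternatives.

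Same-numbered libraries deviated together for some numbers only (r of 0.44, -0.32, 0.71 and -0.55 for numbers 1 to 4). Such correlations cannot decide whether same-numbered libraries were handled together, and the main fit did not pair them. With a replicate block the members' median was 0.022 and no gene was called; Atp5g1 was at 0.071, Atp5g3 0.016, Cox6c -0.037, Ndufa4l2 -0.13, Sdha 0.082 and Uqcrh -0.010. Depth is unknown and limits the low members most.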
